A study of Homo sapiens with 6 samples.

Results

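The human genome keeps a large share of its zinc finger genes on chromosome 19. The genes described here are the protein-coding genes of that chromosome whose symbol is ZNF followed by a number. GENCODE release 29 lists 240 of them, and all 240 were found among the 58243 genes of the deposited tables. Of these, 77 averaged 1 FPKM or more over the 6 libraries (FPKM, a fragment count corrected for transcript length and for the mapped total), 62 were above 0 but averaged less than 1 FPKM, and 101 were listed at 0 in every library. The series profiled CAL27, an established line of epithelial cells from a squamous cell carcinoma of the tongue, grown in high-glucose medium. In 3 libraries the cells had received 30 mM metformin, the biguanide prescribed against diabetes, for 48 h, and in the other 3 they had received the PBS vehicle for the same time. CAL27 is a single line and only 1 dose and time were included. Whether the libraries of a group come from different cultures is not stated in the labels, so the p-values rest on a library-to-library spread that may be only technical.

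Most numbered ZNF genes of chromosome 19 encode transcription factors with an array of C2H2 zinc fingers that reads DNA, and many carry a KRAB domain as well. A KRAB domain binds the corepressor TRIM28, which brings in the histone methyltransferase SETDB1, heterochromatin proteins and deacetylases, so that the bound DNA is silenced. Many of these proteins bind transposable elements, and the genes arose by repeated tandem duplication, which left them in clusters of related neighbours. The clusters are themselves known to carry heterochromatin in many cell types, and several members are silenced by DNA methylation in carcinomas.

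In depth, the steps between low values placed the 6 libraries at 0.957 to 1.08 times PBS replicate 1, with no group deeper throughout. Each ratio to that library rested on 69 to 106 genes. Only ratios near 1 were searched, so a large difference in depth could not have been found. All 9 squamous epithelial markers tried (among them KRT5, KRT14 and TP63) passed 1 FPKM. Their summed level was 1292 to 1371 FPKM in the PBS libraries and 752 to 775 in the metformin libraries. The lower sum lay mainly in KRT5 and KRT14, with means of 355 and 246 FPKM with PBS and 52.4 and 12.9 with metformin. KRT6A, KRT17 and TP63 had lower means with metformin too. DSG3, EPCAM and CDH1 went the other way, from means of 9.01, 103 and 51.5 FPKM to 25.1, 130 and 61, and SFN had 310 and 315. Markers of other cell types were low: 6 fibroblast genes summed to 1.54 to 2.34 FPKM with PBS and 2.49 to 2.74 with metformin, with DCN at 0. The sums were 5.22 to 6.47 and 4.12 to 5.19 for 5 immune genes, and 5.93 to 6.87 and 2.01 to 2.32 for 3 endothelial genes, of which CDH5 made up nearly all. PTPRC, MS4A1, PECAM1 and VWF each averaged under 0.1 FPKM. The part of these marker shifts in the changes below was not tested. A listed 0 is not read as absence, because 37 of 37 mitochondrially encoded genes, abundant in any living cell, are also listed at 0 in all 6 libraries.

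The ZNF genes of chromosome 19 were more often listed at 0 than numbered ZNF genes elsewhere. Of the 240, 42.1% were at 0 in every library, against 8.97% of the 234 numbered ZNF genes on other chromosomes and 18.4% of all 19788 protein-coding genes. Of 23 zinc finger genes of chromosome 19 with other names 34.8% were at 0, a share closer to that of the 240. Among other protein-coding genes of chromosome 19, the share was 35.8% of the 179 inside the spans of the ZNF clusters and 14.4% of the 1025 outside them. The counts per library were even: between 106 and 112 of the 240 genes were listed at 0 in any one library, and 108 were at 0 in at least 5 of the 6. All 77 genes that averaged 1 FPKM or more were above 0 in every library. No test was made of these shares, which describe 1 cell line.

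The share of genes at 0 differed between clusters along the chromosome. Neighbouring genes were placed in one cluster when the gap between them was at most 1 Mb, which gave 16 clusters, 5 of them of a single gene. Of the 11 clusters with more than 1 gene, 4 had the majority of their genes listed at 0 (ZNF536, alone in its cluster, was at 0 as well). These were ZNF653 to ZNF791 at chr19:11483427-12640098 (GRCh38) with 13 of 25, ZNF101 to ZNF254 at chr19:19668796-24129961 with 29 of 37, ZNF565 to ZNF573 at chr19:36182060-37817300 with 19 of 24, and ZNF175 to ZNF331 at chr19:51571298-53580269 with 24 of 39. Together they held 125 genes, of which 85 (68%) were at 0 and 14 reached 1 FPKM. The 3 clusters with at least 8 genes at 1 FPKM or more had smaller shares at 0. They were ZNF557 to ZNF846 at chr19:7069444-9793180, with 1 of 15 genes at 0, ZNF575 to ZNF296 at chr19:43525497-45076588, with 2 of 24, and ZNF628 to ZNF446 at chr19:55476332-58481230, with 11 of 57. Of their 96 genes 14 (14.6%) were at 0 and 55 reached 1 FPKM. Both groups of clusters were chosen by these levels, so the contrast of 68% and 14.6% follows in part from the choice.

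**Figure D1:**
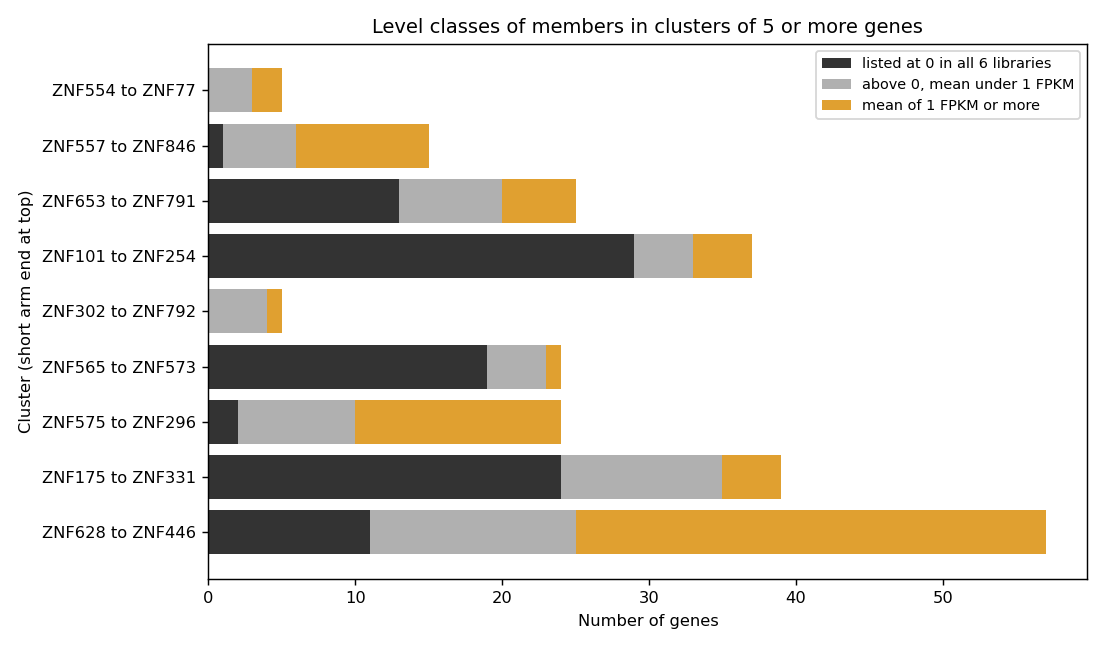
Number of ZNF genes (horizontal axis) in each cluster of 5 or more genes (vertical axis, short arm end at the top), split into genes listed at 0 in all 6 libraries, genes above 0 that average under 1 FPKM, and genes of 1 FPKM or more. The cluster ZNF565 to ZNF573 has 19 of 24 genes at 0, and ZNF557 to ZNF846 has 1 of 15.

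Within the clusters the genes at 0 lay side by side. Runs of at least 4 consecutive ZNF genes at 0 numbered 14 and held 87 of the 101 such genes (86.1%). Since 85 of the 101 lay in the 4 clusters that were mostly at 0, such runs follow in part from those shares. Inside those runs lie 210 other listed genes of every type. Of these, 15 (7.14%) were above 0 in some library, against 60.2% of the 2710 other genes of chromosome 19. The sets differ in gene type. No run held more than 2 other protein-coding genes, whereas the 2710 include 1025 protein-coding genes outside the cluster spans alone. The part of gene type in the difference between the shares was not tested. Among the 210, RPSAP58, a ribosomal protein pseudogene, was the one gene that averaged 1 FPKM or more (7.97 FPKM). Because RPSAP58 is close in sequence to a highly expressed gene, its value is uncertain.

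Stretches of at least 5 consecutive ZNF genes that each averaged under 0.05 FPKM, a limit set after the values were seen, numbered 8 and covered 97 genes, 88 of them at 0. The longest ran from ZNF738 to ZNF254 over chr19:21358930-24129961, a span of 2.77 Mb next to the centromere on the short arm. It held 21 ZNF genes, of which 20 were at 0, and the highest value in any library was 0.0109 FPKM, for ZNF91 in PBS replicate 3. In ZNF569 to ZNF573 (8 genes, chr19:37411155-37817300) and ZNF582 to ZNF835 (7 genes, chr19:56375846-56671783) every gene was at 0. The other stretches were ZNF763 to ZNF709 with 13 genes, ZNF506 to ZNF85 with 10, ZNF566 to ZNF420 with 12, ZNF577 to ZNF614 with 6 and ZNF610 to ZNF677 with 20.

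Some edges of the stretches were abrupt. ZNF146, which encodes a short protein made almost wholly of zinc fingers, had the highest level of all 240 genes, 33.5 FPKM, and the next numbered ZNF gene along the long arm, ZNF566, began a stretch of 12 genes in which no library exceeded 0.0126 FPKM. ZNF480 averaged 3.82 FPKM and the next gene, ZNF610, opened a stretch of 20 genes. ZNF444, at 2.09 FPKM, preceded the 7 genes at 0 from ZNF582 to ZNF835. Between the stretches ending at ZNF85 and beginning at ZNF738 lay ZNF430, ZNF714 and ZNF431, with means of 1.72, 1.63 and 1.56 FPKM in that order along the chromosome, and then ZNF708 at 0.124.

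**Figure D2:**
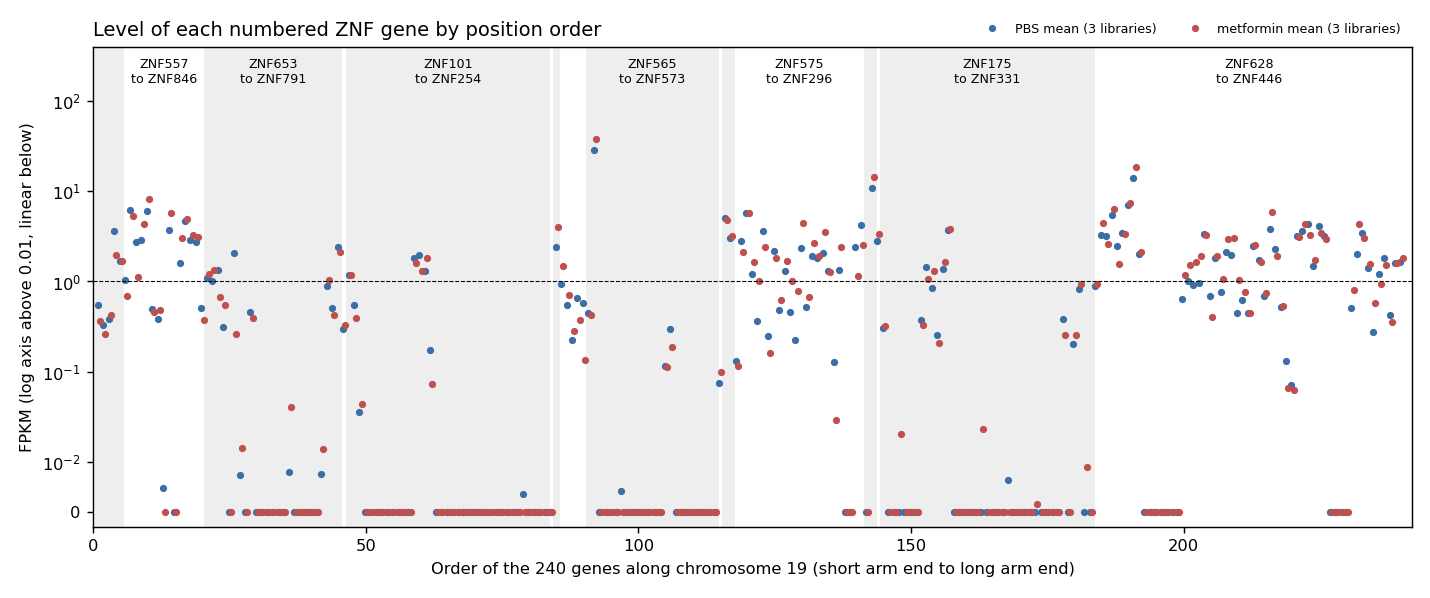
Mean FPKM of each of the 240 genes with PBS and with metformin (vertical axis, logarithmic above 0.01 and linear below) against the order of the genes along the chromosome (horizontal axis), with clusters as shaded bands. Long rows of points lie at 0 in both groups, and ZNF146 stands highest, at a mean of 33.5 FPKM.

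The sequence before the start of transcription was compared for the genes on which these results turn. Windows were taken from RefSeq (GRCh38.p14), beginning 250 bases before the RefSeq start and ending before the first base that GENCODE places in an exon, so that each holds upstream sequence alone. All are on the plus strand, written 5′ to 3′ with CpG dinucleotides in capitals. ZNF85 (chr19:20923001-20923221), listed at 0 in all libraries, and ZNF430 (chr19:21020407-21020619), at 1.72 FPKM, are shown because they are consecutive genes on either side of the edge of a stretch. ZNF440 (chr19:11814023-11814272) is shown for the largest fall with metformin, and ZNF274 (chr19:58182811-58183028) for the largest rise among the tested genes.
ZNF85: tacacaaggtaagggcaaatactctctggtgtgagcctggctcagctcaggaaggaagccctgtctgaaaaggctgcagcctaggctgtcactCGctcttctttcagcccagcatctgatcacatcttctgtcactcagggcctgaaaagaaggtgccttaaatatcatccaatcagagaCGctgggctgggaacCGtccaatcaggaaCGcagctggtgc
ZNF430: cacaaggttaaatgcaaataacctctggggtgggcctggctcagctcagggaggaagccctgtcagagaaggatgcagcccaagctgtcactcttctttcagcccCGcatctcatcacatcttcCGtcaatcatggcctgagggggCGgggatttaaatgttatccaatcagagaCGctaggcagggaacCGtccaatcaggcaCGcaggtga
ZNF440: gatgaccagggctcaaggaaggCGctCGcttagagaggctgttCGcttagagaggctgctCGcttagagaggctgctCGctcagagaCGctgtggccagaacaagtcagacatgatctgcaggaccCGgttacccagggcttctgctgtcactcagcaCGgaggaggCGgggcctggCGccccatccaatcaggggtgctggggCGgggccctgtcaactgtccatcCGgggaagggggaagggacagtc
ZNF274: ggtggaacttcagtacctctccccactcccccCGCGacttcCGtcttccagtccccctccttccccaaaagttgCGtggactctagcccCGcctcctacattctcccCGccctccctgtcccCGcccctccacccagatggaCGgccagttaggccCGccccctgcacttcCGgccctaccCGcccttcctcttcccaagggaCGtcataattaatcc

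The windows of ZNF85 and ZNF430 were close relatives. In a global alignment 180 of 212 aligned bases (84.9%) were identical, and both held the letters CCAAT. ZNF85 had 4 CpG and no GGGCGG, while ZNF430 had 6 CpG and 1 GGGCGG. ZNF440 and ZNF274 had 12 CpG each, and GGGCGG occurred 1 and 4 times on either strand. These matches are letters in a window and were not tested as binding sites. The windows differ in length, at 221, 213, 250 and 218 bases for ZNF85, ZNF430, ZNF440 and ZNF274. Over the full 250 bases, the basis of the medians below, these genes had 8, 10, 12 and 14 CpG in that order.

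Over all genes with a RefSeq entry (209 of 240), the upstream 250 bases had a higher median CpG count than all promoters in each level class. The median number of CpG was 14 in the 85 genes listed at 0, 18 in the 55 of intermediate level and 16 in the 69 at 1 FPKM or more, against 10 over the 27195 promoters of the table. Searched on both strands, GGGCGG, the GC box of the SP family, was found in 67% of the ZNF genes and 42.3% of all promoters, and CCAAT in 51.2% and 33%. TATAAA was found in 2.39% of the ZNF genes and 11.2% of all promoters. For AAGATGGC, letters of the YY1 motif, the shares were 3.83% and 1.38%, and for the palindromic NRF1 motif 2.39% and 1.13%. TGACGTCA, the cAMP response element, was in 2.39% of the ZNF genes and 1.75% of all promoters, with 0 of the 85 genes at 0 and 4 of the 69 at 1 FPKM or more. The other motifs did not split in this way. GGGCGG was in 69.4% of the 85 and 65.2% of the 69, and CCAAT in 50.6% and 49.3%. The NRF1 motif and AAGATGGC were each in 4 of the 85 and 1 of the 69, and TATAAA in 3 and 1. No motif contains another.

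By a count in translated transcripts, the genes at 0 had about as many zinc fingers as the others. The median number of C2H2 fingers was 13 for the genes at 0, 13 for those of intermediate level and 11 for those at 1 FPKM or more, and 183 of 240 genes had at least 10. The longest protein-coding transcript of each gene was used, and the count depends on that choice. It was 0 for ZNF599, ZNF738, ZNF765, ZNF773 and ZNF549. Near-identical copies could hide reads of related genes, since the handling of reads with several matches is not given in the sources used here. Over the 240 genes 148 had no 100-base stretch of transcript in common with another gene, and the median share was 0 in all 3 level classes. Only exact matches were counted, so copies with scattered differences were missed. Genes annotated over the same bases also count as sharing. Of the 101 genes at 0, 12 shared more than 10% of such stretches and 6 more than 50%. The values of those genes are uncertain, and ZNF320 (99.48%) and ZNF468 (99.15%), whose spans overlap on the minus strand, were the most affected.

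Several ZNF genes of known role were among those at 0. ZNF93, which represses L1 retrotransposons, was listed at 0 in all 6 libraries, and ZNF91, which represses SVA elements, had its single value of 0.0109 FPKM. ZNF675, known as an inhibitor of TRAF6 signalling, ZNF350, a repressor that binds BRCA1, and ZNF382 and ZNF331, both described as silenced by promoter methylation in carcinomas, were all listed at 0 in every library. The genes used as DNA methylation markers of carcinoma, ZNF582, ZNF154 and ZNF671, were also at or near 0: ZNF582 was at 0 throughout, ZNF154 averaged 0.0985 FPKM and ZNF671 0.0662. DNA methylation was not measured in this series.

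Where genes were expressed, levels were modest. Of the 77 genes at 1 FPKM or more, 69 lay between 1 and 5 FPKM and 8 at or above 5, with a median of 2.45 FPKM against 5.86 for all 13437 genes that passed the same filter. After ZNF146, the highest means were those of ZNF787 (16.3 FPKM), ZNF114 (12.7), ZNF581 (7.20), ZNF317 (7.15) and ZNF865 (5.86).

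The comparison of metformin with PBS asked which of these genes respond to the drug. Fewer of the expressed ZNF genes changed than of genes in general, and the changes were small. Tests were made with limma on log2(FPKM + 1) over every gene that averaged at least 1 FPKM, with Benjamini-Hochberg adjustment over all 13437 and a threshold of 0.05. Of the 77 ZNF genes 24 (31.2%) passed, whereas 56.2% of all tested genes did. In the upward direction 15 (19.5%) rose, against a background of 31%, and in the downward direction 9 (11.7%) fell, against 25.2%. Metformin and PBS values were free of overlap for 35 of the 77 (45.5%), and for 64.4% of all tested genes.

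Genes of like level were called more often too. Among tested protein-coding genes of 1 to 5 FPKM 50.1% passed (28.6% higher and 21.5% lower), and among the 69 ZNF genes in that range 30.4% did. Overlap was absent for 61.3% of the former and 44.9% of the latter. The median size of the change in log2(FPKM + 1), whatever its sign, was 0.21 for these 69 and 0.33 for the protein-coding genes of like level. It was 0.21 for the 77 ZNF genes and 0.36 for all tested genes. Of the 77, ZNF440 alone moved by at least 1 on this scale. So did 389 of the 4123 protein-coding genes of 1 to 5 FPKM and 1552 of all 13437 tested genes. The scale understates changes of low genes, and the median level was 2.12 FPKM for the 69 and 2.72 for the 4123. In ratios of mean FPKM, ZNF414, ZNF274, ZNF180 and ZNF543 also changed at least 2-fold (2.46, 2.13, 2.05 and 2.01). The share of all tested genes at that ratio is not given here. The median standard errors were 0.11 for the 77 ZNF genes and 0.10 for all tested genes.

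Numbered ZNF genes elsewhere in the genome moved mostly upward. Of 146 tested on other chromosomes, 55 rose and 13 fell (46.6% called), with a median log2 change of 0.21, and the split was 51 and 17 under median-of-ratios scaling and 45 and 17 under quantile normalization. For the chromosome 19 genes the median log2 change was 0.05, with quartiles of -0.14 and 0.31. Their split of 15 higher and 9 lower depended on the scaling: it was 11 and 11 under median-of-ratios scaling and 11 and 15 under quantile normalization, with medians of -0.0017 and -0.06. No direction for the chromosome 19 genes as a whole can therefore be given. Other protein-coding genes of chromosome 19 were called in 57.1% of cases inside the cluster spans and 57% outside them.

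**Figure D3:**
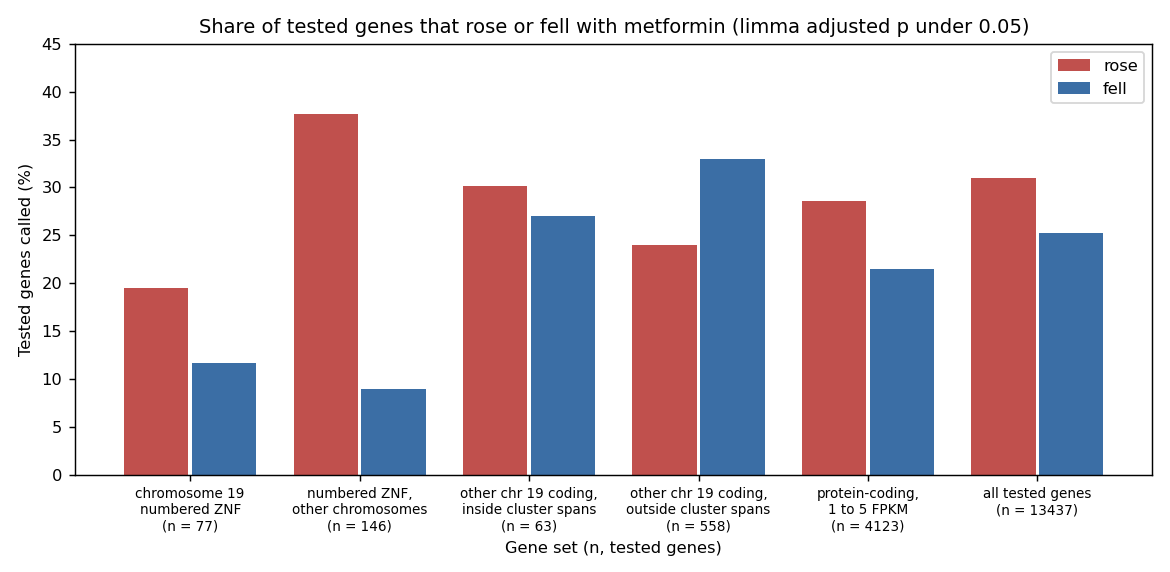
Percentage of tested genes that rose or fell with metformin at a limma adjusted p under 0.05 (vertical axis) in each gene set (horizontal axis, with the number tested). The chromosome 19 ZNF genes have 19.5% risen and 11.7% fallen, against 31% and 25.2% of all tested genes.

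Among the clusters with at least 8 tested genes, the share called was highest in ZNF557 to ZNF846 on the short arm, where 4 of 9 tested genes rose and 1 fell (55.6%, near the 56.2% of all tested genes), with a median log2 change of 0.16. In ZNF575 to ZNF296, 2 of 14 rose and 2 fell (28.6% called, median 0.02). In ZNF628 to ZNF446, the largest cluster, at the end of the long arm, 5 of 32 rose and 2 fell (21.9% called, median 0.05). These 3 clusters together gave 11 rises and 5 falls among 55 tested genes. In the 4 clusters of more than 1 gene that were mostly at 0, 3 of 14 tested genes rose and 3 fell. The 9 remaining clusters, ZNF536 among them, had 8 tested genes, of which ZNF507 rose and ZNF57 fell. Differences between clusters were not tested, and the counts per cluster are small.

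**Figure D4:**
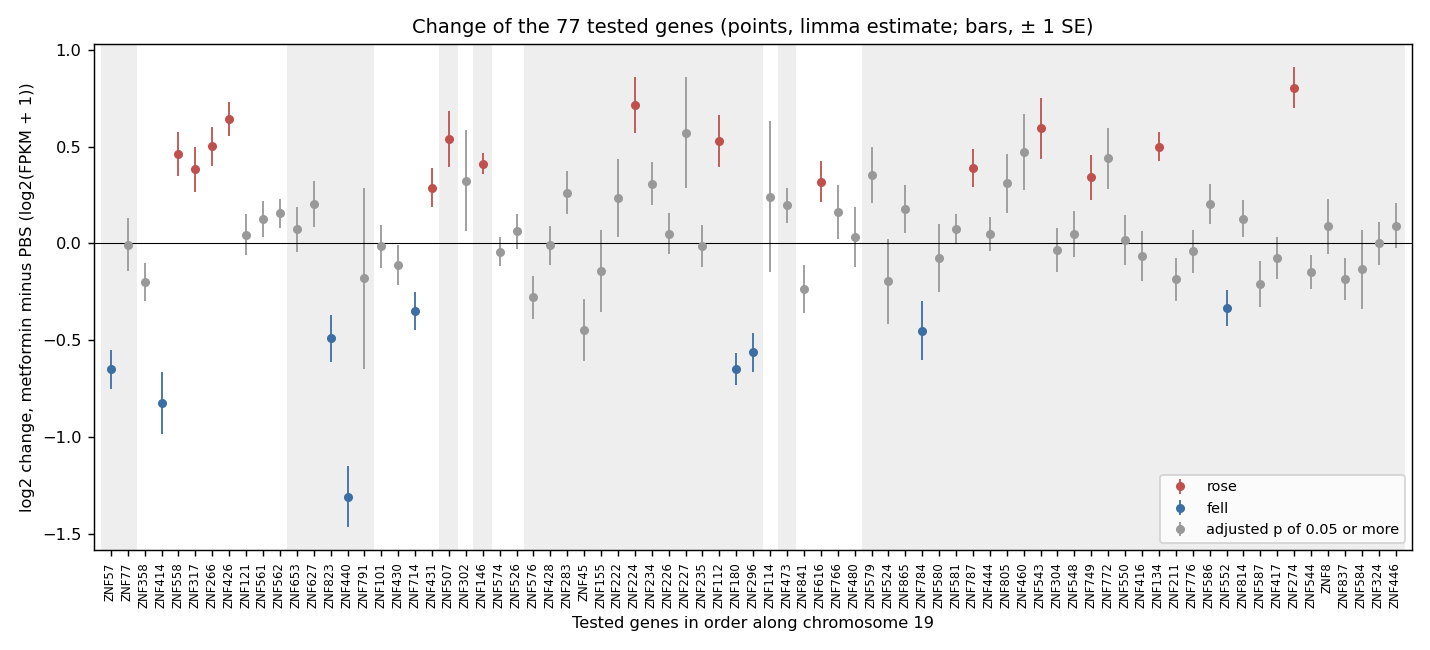
Change with metformin in log2(FPKM + 1) (vertical axis; points are limma estimates, bars 1 standard error) for the 77 tested genes in order along the chromosome (horizontal axis), coloured by whether they rose, fell or had an adjusted p of 0.05 or more. Risen and fallen genes are interspersed, and ZNF440 lies lowest, at -1.31.

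Among the 77 tested genes the largest rise belonged to ZNF274, whose protein binds the 3′ ends of other zinc finger genes and brings SETDB1 to them. It measured 1.96, 2.17 and 1.96 FPKM in the PBS libraries and 4.97, 3.70 and 4.29 in the metformin libraries. Every metformin library was above every PBS library. The mean was 2.13-fold higher (log2 change 0.81, SE 0.11, limma adjusted p = 0.000803). ZNF274 lies at chr19:58183029-58213562, in the last cluster of the long arm.

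In the same cluster ZNF543 and ZNF787 rose as well. ZNF543 had 1.23, 0.556 and 1.08 FPKM with PBS and 1.87, 2.17 and 1.74 with metformin, a 2.01-fold rise (limma adjusted p = 0.0167) that was no longer called by limma without metformin replicate 2 (adjusted p = 0.055). PBS replicate 2 was the low library. ZNF787, the second most abundant of the 240 genes, rose 1.33-fold, from 13.7, 15.6 and 12.7 FPKM to 17.9, 17.4 and 20.7 (log2 change 0.39, SE 0.10, limma adjusted p = 0.0133), and its groups did not overlap. ZNF134 and ZNF749, named after their values were seen, were the other risen genes of the cluster. ZNF134 rose 1.52-fold, from 4.11, 3.82 and 3.65 FPKM to 6.17, 5.59 and 5.85 (limma adjusted p = 0.00131). ZNF749 rose 1.39-fold, and its call was lost without any 1 library except PBS replicate 3 (adjusted p up to 0.121).

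The 2 fallen genes of the cluster were ZNF784 and ZNF552. ZNF784 went from 2.56, 2.56 and 2.32 FPKM to 1.06, 1.61 and 2.06, so the metformin libraries were all lower but spread widely (1.57-fold lower, limma adjusted p = 0.0404). That call held only without metformin replicate 3, and leaving out any other library raised the adjusted p to between 0.0699 and 0.0994. ZNF552 was 1.34-fold lower (4.23, 4.72 and 4.07 FPKM against 3.62, 3.21 and 2.91, limma adjusted p = 0.0212), with no overlap of the groups. Its call was lost without PBS replicate 2, metformin replicate 2 or metformin replicate 3 (limma adjusted p = 0.0646, 0.056 and 0.0637). It shares exon bases with ZNF586 on the opposite strand, and without a stated strand setting the reads of the pair cannot be told apart.

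In ZNF557 to ZNF846 the rises came from ZNF426, ZNF266, ZNF317 and ZNF558. ZNF426 had 1.72, 1.52 and 1.55 FPKM with PBS and 3.33, 2.83 and 3.01 with metformin (1.91-fold, log2 change 0.64, SE 0.09, limma adjusted p = 0.00102). Its groups stood well apart. ZNF266 rose 1.54-fold, from 3.88, 3.71 and 3.52 FPKM to 4.81, 6.24 and 6.03 (limma adjusted p = 0.00533), and ZNF558, named after its values were seen, rose 1.51-fold (limma adjusted p = 0.012). ZNF317 had 4.98, 6.10 and 7.25 FPKM with PBS and 8.03, 8.25 and 8.30 with metformin, a 1.34-fold difference (limma adjusted p = 0.0297). The PBS libraries of ZNF317 varied more than the metformin libraries, and the call was lost without any 1 library except PBS replicate 3 (limma adjusted p from 0.0544 to 0.0754) and under median-of-ratios and quantile scaling (adjusted p = 0.0622 and 0.0575).

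ZNF414 fell in that cluster. Its values were 3.41, 2.53 and 2.31 FPKM with PBS and 1.23, 1.36 and 0.761 with metformin. All metformin libraries were lower than all PBS libraries, and the mean was 2.46-fold lower (log2 change -0.82, SE 0.16, limma adjusted p = 0.00466).

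The cluster ZNF575 to ZNF296 gave changes in both directions. ZNF224, a KRAB repressor first described at the aldolase A gene, had 2.58, 2.38 and 2.02 FPKM with PBS and 5.03, 3.43 and 5.06 with metformin. Metformin replicate 2 was the lowest of the treated libraries but still above all PBS values (1.94-fold, log2 change 0.72, SE 0.14, limma adjusted p = 0.00545). ZNF224 shares exon bases with AC021092.1 on the opposite strand, so part of its reads is uncertain. ZNF112 rose 1.80-fold, from 1.36, 1.29 and 1.34 FPKM to 2.98, 1.86 and 2.37 (limma adjusted p = 0.0134). ZNF180, 3 genes along from it, fell 2.05-fold, from 2.40, 2.33 and 2.43 FPKM to 1.19, 1.18 and 1.12 (log2 change -0.65, SE 0.08, limma adjusted p = 0.000701), and its groups were far apart for their spread. ZNF296, next along from ZNF180, went from 4.15, 4.54 and 4.06 FPKM to 2.63, 2.17 and 2.90 (1.66-fold lower, limma adjusted p = 0.00311), without overlap, and shares exon bases with GEMIN7-AS1.

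ZNF440 showed the largest change of all 77 genes. It measured 2.13, 2.07 and 2.06 FPKM in the PBS libraries and 0.0926, 0.139 and 0.554 in the metformin libraries. The PBS values were nearly equal, and metformin replicate 3 was several times above the other treated libraries. The mean was 7.97-fold lower (log2 change -1.31, SE 0.16, limma adjusted p = 0.000513), and 18.0-fold lower without metformin replicate 3. ZNF440 lies at chr19:11814284-11835201 in the cluster ZNF653 to ZNF791. Its neighbour ZNF439 was above 0 in PBS replicate 3 and metformin replicate 3 alone (0.0218 and 0.0426 FPKM), so its values are too low to compare. ZNF823 also fell in this cluster, 1.99-fold (1.45, 1.25 and 1.33 FPKM against 0.863, 0.651 and 0.503, limma adjusted p = 0.0125), and was named after its values were seen. Of the 5 tested genes of the cluster, 2 fell and none rose, against 25.2% and 31% of all tested genes. So few genes cannot be compared with those shares.

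**Figure D5:**
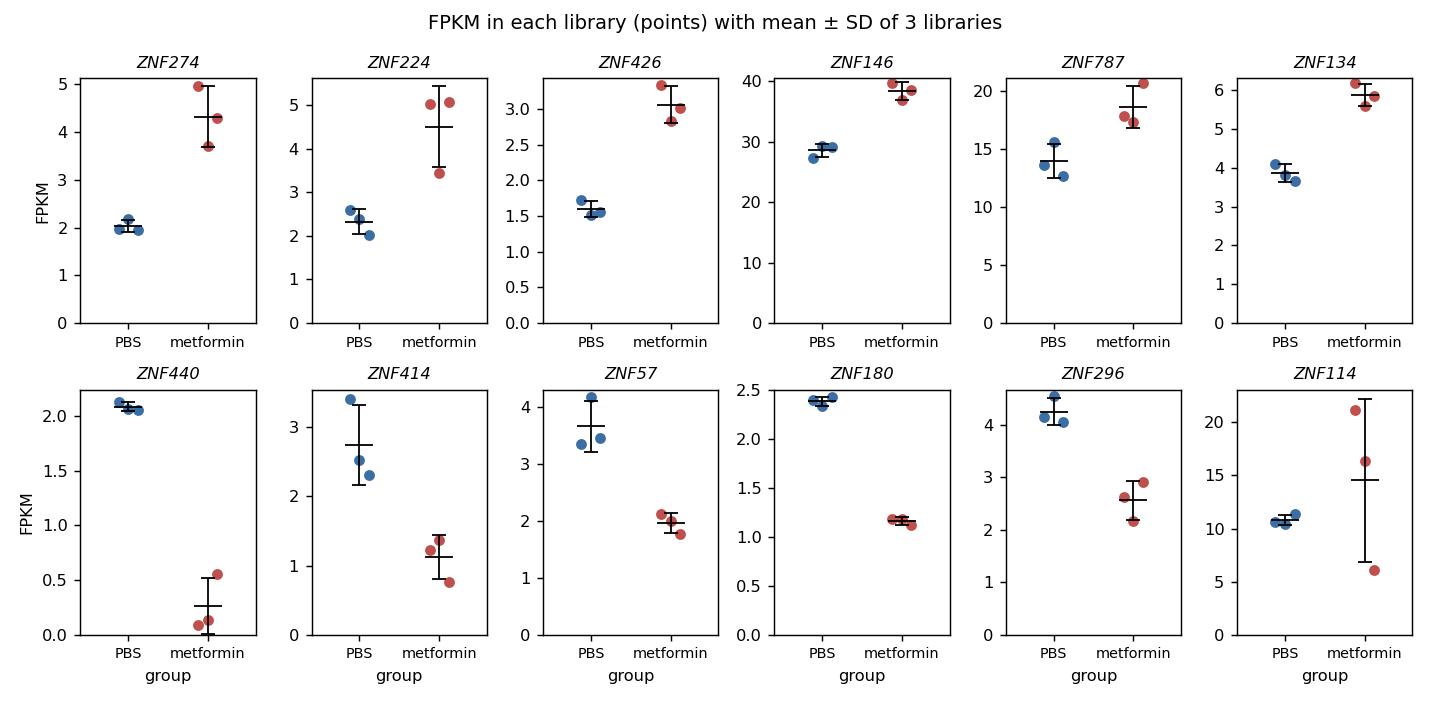
FPKM of 12 ZNF genes in each library (points) with the mean and SD of the 3 libraries of a group (vertical axes start at 0; horizontal axes give the group). ZNF274, ZNF224, ZNF426, ZNF146, ZNF787 and ZNF134 are higher in all metformin libraries, ZNF440, ZNF414, ZNF57, ZNF180 and ZNF296 are lower in all of them, and ZNF114 spreads from 6.05 to 21.1 FPKM with metformin.

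ZNF146 was the only tested gene of the cluster ZNF565 to ZNF573. Its level rose from 27.4, 29.4 and 29.1 FPKM to 39.8, 36.9 and 38.5, which is 1.34-fold (log2 change 0.41, SE 0.05, limma adjusted p = 0.000822). The groups did not overlap and the call held under all 18 alternatives tried. ZNF566, the next along, was at 0 in both groups.

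In ZNF101 to ZNF254 the island of 3 expressed genes between stretches near 0 was divided. ZNF714 fell 1.48-fold, from 1.90, 1.79 and 2.16 FPKM to 1.31, 1.43 and 1.19 (limma adjusted p = 0.021), and its neighbour ZNF431 rose 1.39-fold, from 1.48, 1.30 and 1.14 FPKM to 1.83, 1.92 and 1.69 (limma adjusted p = 0.0446). ZNF430 was not called (log2 change -0.11, limma adjusted p = 0.388). Both calls were close to the threshold. That of ZNF714 was lost without PBS replicate 1 or 3 or metformin replicate 1 or 3 (limma adjusted p from 0.05 to 0.0697), and that of ZNF431 without any 1 library except PBS replicate 1 (adjusted p from 0.065 to 0.123) and under quantile normalization (adjusted p = 0.259).

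Elsewhere, ZNF57 near the end of the short arm fell 1.86-fold, from 3.35, 4.17 and 3.44 FPKM to 2.12, 1.99 and 1.78 (log2 change -0.65, SE 0.10, limma adjusted p = 0.00169). ZNF507, the sole gene of its cluster, had 2.37, 2.40 and 2.41 FPKM with PBS and 2.94, 4.54 and 4.52 with metformin (1.67-fold, limma adjusted p = 0.0167). Its PBS libraries were nearly equal and metformin replicate 1 lay below the other treated libraries. The call was lost without metformin replicate 2 or 3 (limma adjusted p = 0.0548 and 0.0547). ZNF616, in ZNF175 to ZNF331, rose 1.54-fold from 0.777, 0.964 and 0.783 FPKM to 1.18, 1.30 and 1.41 (limma adjusted p = 0.0377), and only leaving out PBS replicate 2 kept the call (adjusted p from 0.053 to 0.104 without any of the others, and 0.27 under quantile normalization).

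The remaining 53 tested genes did not pass. Their log2 changes ran from -0.45 to 0.57, 30 above 0 and 23 below, and 22 were within 0.1 of no change. An adjusted p under 0.1 was reached by 7 of them. Among the abundant genes, ZNF581 had 7.45, 6.90 and 6.62 FPKM with PBS and 6.79, 7.71 and 7.73 with metformin (log2 change 0.07, SE 0.08), and ZNF865 had a change of 0.18 with an SE of 0.12. ZNF473, which takes part in processing the 3′ ends of histone transcripts, changed by 0.20 in log2 (SE 0.09, limma adjusted p = 0.111). ZNF304, a KRAB factor linked to silencing of tumour suppressor genes, had -0.03 (SE 0.11).

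ZNF114 was the most variable of the abundant genes. Its PBS values of 10.6, 10.4 and 11.4 FPKM were close together, while the metformin libraries had 21.1, 16.4 and 6.05. Metformin replicates 1 and 2 were above all PBS libraries and metformin replicate 3 was below them all. The log2 change was 0.24 with an SE of 0.39 (limma adjusted p = 0.624). It was 0.73 without metformin replicate 3 and -0.09 without metformin replicate 1, so no direction can be given.

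The 62 genes above 0 but under 1 FPKM were not tested in the main comparison. Their means ran from 0.000786 to 0.959 FPKM with a median of 0.397, and 46 were above 0 in all 6 libraries. All 3 metformin values were above all PBS values for ZNF441, ZNF136, ZNF404, ZNF419 and ZNF329, and below them for ZNF554, ZNF557 and ZNF792. These 8 are 12.9% of the 62, against 32.2% of the 5345 protein-coding genes in the same range of levels. ZNF404 measured 0.346, 0.326 and 0.410 FPKM with PBS and 0.904, 1.52 and 0.617 with metformin, and ZNF419 measured 0.556, 0.278 and 0.508 against 1.37, 0.843 and 0.863. When the filter was lowered to 0.5 FPKM, 19 of the 62 were tested and these 2 were called. ZNF792 went the other way, from 0.490, 0.661 and 0.585 FPKM to 0.178, 0.0560 and 0.174, and was the one of the 62 called when no filter was used. The share of all genes under 1 FPKM called in either setting is not given here, so these counts cannot be set against a background.

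Detection at the lowest levels did not separate the groups. ZNF613, ZNF808, ZNF160 and ZNF813 were at 0 in all PBS libraries and above 0 in at least 1 metformin library, and ZNF177, ZNF91, ZNF461 and ZNF28 were the reverse. The highest value among these 8 genes was 0.0700 FPKM, for ZNF808 in metformin replicate 3.

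Summed over all 240 genes, the level was 261, 273 and 267 FPKM in the PBS libraries and 310, 291 and 299.5 in the metformin libraries. The metformin sums were all higher, 300.1 ± 9.32 against 267 ± 5.93 (SD, n = 3). Without ZNF146 the means were 262 and 238. These sums were not rescaled or tested. Median-of-ratios scaling, which divides PBS libraries by 0.978 to 0.988 and metformin libraries by 1.037 to 1.041, narrows the difference. By cluster, ZNF628 to ZNF446 made up 103 to 104 FPKM with PBS and 112 to 122 with metformin, and ZNF557 to ZNF846 35.3 to 37.6 and 40.7 to 41.5. The sum for ZNF101 to ZNF254, with 37 genes, was 6.44 to 7.47 and 6.25 to 6.59 FPKM, with the groups overlapping.

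Among the genes through which KRAB zinc finger proteins act, more fell than rose. Of 28 corepressor genes listed, 26 were tested, 2 rose (7.69%) and 12 fell (46.2%), against 31% and 25.2% of all tested genes. The share called, 53.8%, was close to the 56.2% of all tested genes, and the median log2 change was -0.30 against 0.06. TRIM28, the cofactor that KRAB domains bind, lies 62.9 kb beyond ZNF446, the last numbered ZNF gene of the long arm. It had 77, 72 and 74.4 FPKM with PBS and 40.1, 44.4 and 40.1 with metformin, so all treated libraries were far below the controls (1.79-fold lower, log2 change -0.83, SE 0.06, limma adjusted p = 5.17e-05).

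Larger falls were seen for UHRF1, which guides maintenance DNA methylation, and CBX5, a heterochromatin protein. UHRF1 went from 35.4, 32.2 and 45 FPKM to 11.6, 11 and 13.6 (3.11-fold lower, log2 change -1.55, limma adjusted p = 0.000128). CBX5 went from 5.65, 5.37 and 5.71 FPKM to 1.64, 1.57 and 1.47 (3.57-fold lower, log2 change -1.36, limma adjusted p = 1.94e-05). Neither gene had overlapping groups.

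SETDB1, the histone methyltransferase of the complex, was not called: it had 4.32, 3.89 and 4.24 FPKM with PBS and 4.29, 3.54 and 4.32 with metformin (log2 change -0.03, SE 0.09, limma adjusted p = 0.791), and the groups overlapped. ATF7IP, the partner that stabilises SETDB1, rose 1.46-fold, from 5.4, 6.94 and 6.60 FPKM to 9.02, 8.53 and 10.1 (limma adjusted p = 0.00711). Of 5 genes of the HUSH complex and the MORC family, which silence transposable elements with SETDB1, 1 rose (20%, against 31% of all tested genes) and none of the other 4 passed. That gene was MPHOSPH8, a HUSH subunit, at 16.8, 18.2 and 17.8 FPKM with PBS and 26.5, 26.7 and 26.2 with metformin (1.5-fold, limma adjusted p = 0.000177). These are transcript levels in bulk RNA, and fewer cells expressing a gene cannot be told apart from less RNA per cell.

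Across the 18 alternative analyses, 15 of the 24 called ZNF genes, 9 risen and 6 fallen, were called in every alternative that tested them. The other 9 lost their call without at least 1 of the 6 libraries, as given above for each. Of those 9, ZNF317, ZNF431, ZNF616 and ZNF749 also lost it under median-of-ratios and quantile scaling, and ZNF714, ZNF431, ZNF616, ZNF784 and ZNF749 with the replicate number as a block. Testing every gene above 0, with no filter, ended these calls and that of ZNF317.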

How the data were processed

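Total RNA of CAL27 cells was made into mRNA libraries, from which the authors made the deposited FPKM values, 1 for each gene in each library, per the file headers. The genome build was GRCh38, per the submitters' processing notes. The sources used here do not name the aligner, the counting tool, the strand setting or the annotation release, and read counts and total depth were not used. Identifiers without version were named from GENCODE 29 (57980 of 58243, 55619 with the same version; 229 of the 240 ZNF genes).

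Values were taken as log2(FPKM + 1) for the 13437 genes averaging at least 1 FPKM. The test was that of limma 3.58.1, run in R 4.3.3 (trended prior, group as the only term, two-sided test, Benjamini-Hochberg adjustment over all of them, threshold 0.05). The script was tested on simulated data. Folds are ratios of group means in FPKM, and log2 changes understate the change of low genes. Exon overlaps came from BEDTools 2.31.1 and the rest from Python 3.11.15, pandas 2.3.3 and NumPy 2.4.6. Promoters and motifs came from RefSeq (GRCh38.p14). No protein table was given, so fingers were counted in translated GENCODE transcripts.

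The members and lists were chosen with earlier results of these data known. The text names, among called members with groups that do not overlap, the 2 largest rises and falls of each cluster with at least 8 tested members and the largest of each in smaller clusters. It also names the 6 highest members, 14 members of known role, and of the corepressor lists TRIM28, SETDB1 and the largest called changes. Further members were named after their values were seen.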

Additional observations from a re-analysis of the deposited data

How the results depend on the processing

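The alternatives were other pseudocounts, filters and scalings, other limma priors, protein-coding genes alone, other cluster gaps, a replicate block and each library left out. The 9 falls became 5 with a filter of 2 FPKM and 15 with quantile normalization. The median log2 change of 0.05 was 0.0736 and 0.0772 with pseudocounts of 0.1 and 0.01, 0.0731 with a filter of 0.5 FPKM, 0.0208 without one, 0.0679 after fixing the sum, -0.0017 with median-of-ratios scaling and -0.0618 with quantile normalization. It ran from 0.0563 to 0.0908 when 1 library was left out. Median-of-ratios scaling took the summed levels to 288.9 FPKM with metformin and 271.7 with PBS. In ZNF557 to ZNF846 the falls were 0 with a filter of 2 FPKM and 3 with a gap of 2 Mb. In ZNF575 to ZNF296 the rises were 1 with that filter, and the falls 4 with either scaling and 1 with a gap of 0.5 Mb. In ZNF628 to ZNF446 the falls were 1 without a filter, 5 with quantile normalization and 1 with a gap of 0.5 Mb. Leaving out 1 library gave 3 to 5 rises and 0 to 1 falls there. The cause was not tested. Leaving out 1 library moved the log2 change of ZNF114 between -0.0901 and 0.7344, of ZNF304 between -0.1233 and 0.0347 and of SETDB1 between -0.0697 and 0.0439.

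Same-numbered libraries did not deviate together (r = -0.000355, 0.0304 and -0.0105). The values thus gave no sign of pairing by number, but they cannot show whether the libraries were handled in pairs. With the replicate block 14 ZNF genes rose and 7 fell, 1 of them in ZNF628 to ZNF446. With so few libraries and levels mostly under 5 FPKM, small changes could be missed.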
